A study of Homo sapiens with 6 samples.

Results

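The genes here encode the fibronectin leucine-rich repeat transmembrane proteins (FLRT1, FLRT2 and FLRT3), the teneurins (TENM1 to TENM4) and UNC5 receptors (UNC5B, UNC5C and UNC5D). All are cell surface proteins, tied together by direct binding or by shared binding partners. The 10 genes were chosen by symbol from a table of 56832 gene symbols. FLRT2 and TENM1 were picked because their mRNA levels differed between the 2 groups of this study, and the others were added as their relatives and binding partners. Of the 10, 9 stood in the table under the listed symbol, and TENM4 was read from the row of its older symbol ODZ4, a synonym in RefSeq. UNC5A, the remaining UNC5 receptor, was not among the chosen genes and is described with the partners.

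FLRT proteins carry leucine-rich repeats outside the cell and act both as homophilic adhesion molecules and as ligands. They bind UNC5 receptors, which also receive the secreted guidance protein netrin and mediate repulsion of axons and migrating cells. FLRTs and teneurins both bind latrophilins, a group of adhesion G protein-coupled receptors, and one latrophilin can hold an FLRT and a teneurin at once. These complexes are known mainly from synapse formation, cortical cell migration and axon guidance.

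HEK293T is an adherent human embryonic kidney line that expresses the large T antigen of simian virus 40. Polyadenylated RNA was sequenced from 3 libraries of unmodified HEK293T cells, called wild-type, and 3 libraries of HEK293T cells labelled as knockout for SMARCA3, the protein of the HLTF gene. The labels give the same growth medium for all samples and name no treatment, clone or culture date. Whether replicates were separate cultures is not given, and the p-values reflect the spread of these libraries alone, which may be technical. The title of the series presents SMARCA3 as a ubiquitin ligase of histone H3 that bears on a repressive histone mark, and this comparison gives the mRNA differences between the labelled groups.

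Library totals ran from 33125811 to 41593655 counts, and every knockout library was shallower than every wild-type library. Levels are given in CPM, counts per 1000000 counts of tested genes scaled by TMM factors, and in the order of the replicate numbers. HLTF mRNA stood at 215, 191 and 195 CPM in wild-type libraries and at 141, 140 and 149 CPM in knockout libraries, so it was lower but present in the libraries labelled knockout (log2 fold change -0.48, edgeR adjusted p = 4.65e-05). The 40 nearest expressed genes around HLTF had a median log2 fold change of -0.50, close to the value of HLTF itself. The sides differed, with values of -1.47 to -0.30 toward higher coordinates and -0.52 to 0.37 toward lower ones. Gene-level counts do not show which allele or exon was altered. Wild-type replicate 1 stood furthest from the others of its group, with a chi-square per degree of freedom of 8.72 and 13.6 against replicates 2 and 3, where the remaining pairs within a group gave 3.30 to 5.16. Of 8 embryonic kidney and epithelial markers, 6 averaged at least 1 CPM, PAX8 had 5 counts over all libraries, and their sum was 154 to 160 CPM in wild-type and 121 to 123 CPM in knockout. Neuronal markers summed to 84.3 to 87.0 CPM in wild-type and 77.6 to 80.5 CPM in knockout, mostly from the neurofilament gene NEFL. Most of the kidney and epithelial sum came from CDH2, at 107 CPM in wild-type and 87.6 CPM in knockout. Single markers differed in both directions, with PAX2 (log2 fold change 1.25) and RBFOX3 (1.02) higher in the knockout. KRT18 (-1.15), KRT8 (-0.91), EPCAM (-1.61), CDH1 (-0.57), CDH2 (-0.28) and SYT1 (-1.32) were lower, and all of these markers were called by edgeR. Fibroblast markers reached 6.87 to 9.14 CPM with DCN at 0, leukocyte markers 2.36 to 3.46 CPM with CD3E at 0, and endothelial markers at most 0.576 CPM. The part of these differences in the results below was not tested.

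The 2 genes on which the results turn lie far apart, FLRT2 on chromosome 14 from 85530144 to 85654426 on the plus strand and TENM1 on chromosome X from 124375903 to 124963817 on the minus strand (GENCODE 29, hg38). RefSeq windows reaching from 250 bases before to 50 bases after an annotated start (GRCh38.p14) show the sequence at their starts, and 3 of the 5 windows of these genes are printed, 5′ to 3′, with each CG dinucleotide in capitals. The first is the outermost FLRT2 start (chr14:85529894-85530193, plus strand). The other 2 are the outer TENM1 start (chrX:125204263-125204562, minus strand) and the inner TENM1 start (chrX:124963768-124964067, minus strand), shown because they differ in CG content and because only the inner one falls at the start of the GENCODE gene.
FLRT2, outermost start: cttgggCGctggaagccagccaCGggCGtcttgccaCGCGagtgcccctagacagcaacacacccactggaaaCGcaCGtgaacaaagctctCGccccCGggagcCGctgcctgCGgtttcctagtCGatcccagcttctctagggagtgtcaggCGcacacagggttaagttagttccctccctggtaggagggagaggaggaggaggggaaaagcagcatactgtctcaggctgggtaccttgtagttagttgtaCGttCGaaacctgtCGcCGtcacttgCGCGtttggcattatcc
TENM1, outer start: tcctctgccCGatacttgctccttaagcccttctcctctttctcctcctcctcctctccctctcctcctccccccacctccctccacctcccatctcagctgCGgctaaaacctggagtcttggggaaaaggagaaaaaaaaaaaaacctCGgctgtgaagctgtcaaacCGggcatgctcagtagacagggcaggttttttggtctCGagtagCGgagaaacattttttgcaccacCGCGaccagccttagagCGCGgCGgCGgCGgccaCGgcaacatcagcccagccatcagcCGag
TENM1, inner start: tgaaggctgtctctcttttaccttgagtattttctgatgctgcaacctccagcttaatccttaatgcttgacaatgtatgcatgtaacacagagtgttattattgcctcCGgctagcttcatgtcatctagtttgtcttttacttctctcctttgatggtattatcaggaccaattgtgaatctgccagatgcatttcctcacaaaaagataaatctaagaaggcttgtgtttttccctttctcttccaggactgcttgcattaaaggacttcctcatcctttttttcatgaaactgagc
The FLRT2 window holds 19 CG dinucleotides, and the windows of its inner starts hold 22 and 25. The outer TENM1 window holds 15 and the inner one 1, which lie at percentiles 51.1 and 4.0 among 35116 such windows, whose median is 14. GC content is 59.0% in the printed FLRT2 window, 57.3% in the outer and 39.3% in the inner TENM1 window.

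Windows were used for 8 of the 10 genes, 14 windows in all, and UNC5B and UNC5D had none among those used. Member windows on chromosome 8, where UNC5D lies, were left out, while the windows used for comparison include that chromosome. CG counts among these 14 ranged from 1 at the inner TENM1 start to 52 at the outer FLRT1 start. The motif TATAAA, searched on both strands, stood in a single window of the set, one of TENM2, against 11.5% of all windows. GGGCGG, searched likewise, stood in 1 of the 3 FLRT2 windows, in windows of FLRT1 and TENM3 and in no TENM1 window, against 45.0% of all windows. CCAAT, also searched on both strands, stood in the inner TENM1 window and in windows of TENM3, TENM4 and UNC5C, against 34.6% of all windows. These are matches of letters only. Gene-level counts do not show which start was used.

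Within the FLRT family, FLRT2 and FLRT1 were higher in the knockout and FLRT3 was not called. FLRT2, a ligand of UNC5 receptors and latrophilins, stood at 0.434, 0.359 and 0.524 CPM in the wild-type libraries and reached 19.1, 20.5 and 19.1 CPM with the knockout. Every knockout library was far above every wild-type library, and the 3 libraries within each group lay close together. On average FLRT2 went from 0.439 ± 0.0828 to 19.6 ± 0.823 CPM (SD over 3 libraries each). The fitted log2 fold change was 5.47 with an SE of 0.12, resting on 52 counts in wild-type and 2040 in knockout. This difference chose the gene and is given without a test. It held rank 7 among the positive log2 fold changes of 18061 genes tested.

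FLRT1, which is most studied in neurons, was the next to be higher in the knockout. Its levels were 0.747, 0.667 and 0.656 CPM in wild-type and 2.83, 1.66 and 1.15 CPM in knockout. The groups did not overlap, but the knockout libraries spread more than 2-fold from lowest to highest while the wild-type libraries were nearly level. FLRT1 rose by 1.44 on the log2 scale (SE 0.31, edgeR adjusted p = 0.00464, n = 3 per group), from 0.690 ± 0.0498 to 1.88 ± 0.858 CPM. Without knockout replicate 1 the log2 fold change was 1.04 (edgeR adjusted p = 0.00648). FLRT1 lies inside MACROD1 on chromosome 11 (64103188 to 64119173), on the other strand and with 0 shared exon bases. Its exons also share 460 and 538 bases with a pair of annotated antisense transcripts, AP000721.2 and AP006333.1, whose counts were not used here. MACROD1, an ADP-ribose hydrolase gene, measured 14.1, 15.9 and 18.8 CPM in wild-type and 20.7, 14.6 and 18.2 CPM in knockout, so knockout replicate 1 was the highest for both genes. MACROD1 itself was not called (log2 fold change 0.13, edgeR adjusted p = 0.473). The library kit keeps strand, but the strand setting of the counting is not given in the sources used here, and the part of unspliced MACROD1 reads in the FLRT1 count was not tested.

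FLRT3, which modulates fibroblast growth factor signalling and cell sorting in the embryo, was the main FLRT gene of wild-type cells. It measured 5.95, 4.70 and 4.17 CPM in wild-type and 3.87, 3.83 and 4.64 CPM in knockout. The groups overlapped, with wild-type replicate 1 highest and the other 2 wild-type libraries within or close to the knockout range. The log2 fold change was -0.27 (SE 0.14, edgeR adjusted p = 0.181, n = 3 per group), and -0.10 without wild-type replicate 1 (edgeR adjusted p = 0.585). FLRT3 sits within MACROD2 on chromosome 20 (14322988 to 14337616), again on the other strand without shared exon bases, and MACROD2 was at 2.15 CPM in wild-type and 2.51 CPM in knockout (not called, edgeR adjusted p = 0.189).

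As shares of the summed FLRT level, counted as CPM per kilobase of merged exons, FLRT3 made up 81.6 to 85.0% in wild-type and 37.2 to 51.6% in knockout. FLRT2 went from 0.922 to 1.53% in wild-type to 27.2 to 33.7% in knockout. These shares depend on the length given to FLRT2, whose merged exons span 34899 bases around a coding sequence of 1980 bases. Per kilobase of longest coding sequence, a length chosen after that figure was seen, FLRT2 was 6.01 to 9.70% of the family in wild-type and 74.0 to 78.8% in knockout, and thus above FLRT3 there (16.4 ± 2.17%). Which of the lengths fits the transcripts in these cells was not tested. By either length the shares follow in part the FLRT2 levels, for which FLRT2 was chosen, and are a description. The FLRT3 level itself was not called different.

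**Figure D1:**
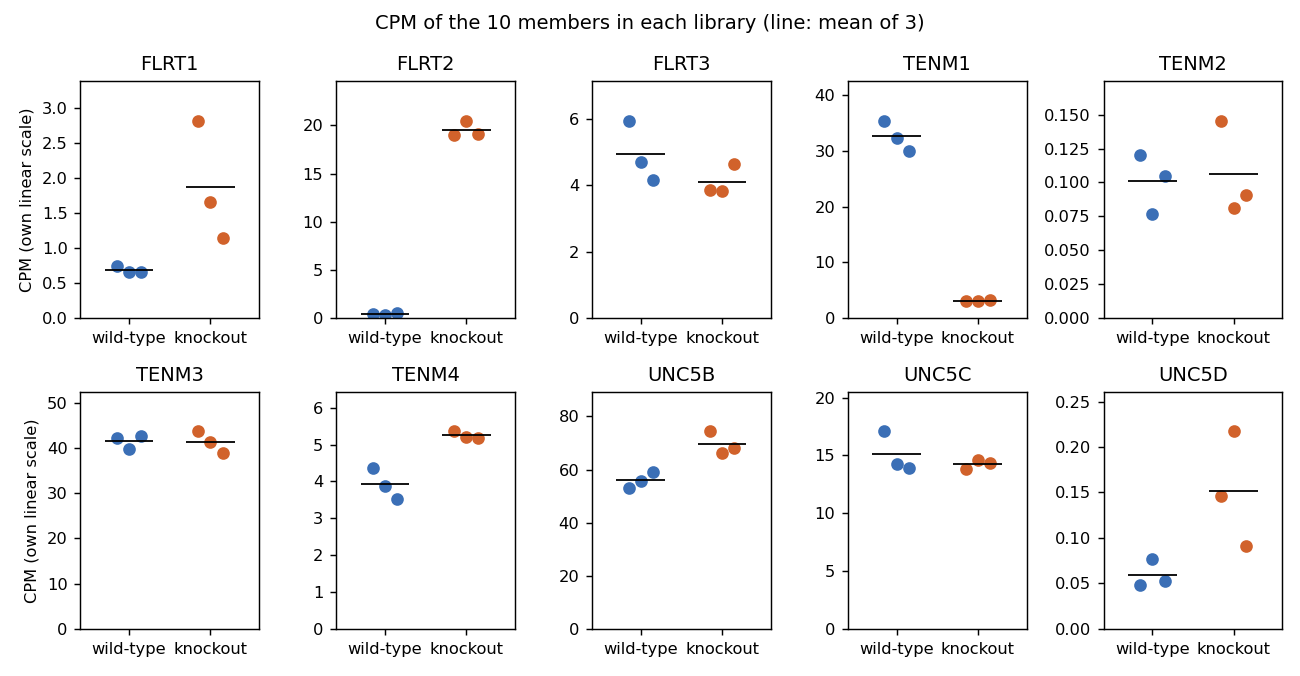
CPM of each of the 10 genes in every library, on a linear axis of its own that starts at 0, with wild-type in blue, knockout in orange, replicates 1 to 3 from left to right and the mean of 3 as a line. FLRT2 stands at 19.1 to 20.5 CPM in knockout against at most 0.524 CPM in wild-type, TENM1 shows the opposite, and TENM2 and UNC5D stay below 0.22 CPM in every library.

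Among the teneurins, TENM1 was lower in the knockout and the other measured members were level or slightly higher. TENM1, a transmembrane protein whose intracellular part can reach the nucleus, stood at 35.4, 32.3 and 30.1 CPM in the wild-type libraries. With the knockout it stood at 3.03, 3.04 and 3.27 CPM. No knockout library came near the wild-type range, and the 3 knockout libraries still held 104, 112 and 108 counts. The average went from 32.6 ± 2.70 to 3.11 ± 0.137 CPM (SD over 3 libraries each). The fitted log2 fold change was -3.39 with an SE of 0.09, given without a test since it chose the gene. With bulk RNA, fewer cells with TENM1 mRNA and less TENM1 mRNA per cell cannot be told apart. It held rank 75 among the negative log2 fold changes.

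TENM3, which matches connections in the visual system and hippocampus, was the most abundant teneurin mRNA in both groups. It measured 42.2, 39.8 and 42.6 CPM in wild-type and 43.7, 41.2 and 38.7 CPM in knockout, and the ranges overlapped almost fully. The log2 fold change was -0.01 (SE 0.06, edgeR adjusted p = 0.911). Leaving out single libraries turned its sign, with values up to 0.03, none of them called.

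TENM4, a teneurin needed for oligodendrocyte differentiation and myelination, was listed as ODZ4. It measured 4.36, 3.87 and 3.51 CPM in wild-type and 5.36, 5.21 and 5.18 CPM in knockout. All 3 knockout libraries were above the wild-type range and nearly equal. TENM4 rose by 0.42 on the log2 scale (SE 0.11, edgeR adjusted p = 0.0116, n = 3 per group).

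TENM2, a latrophilin ligand at synapses, had 12 counts over the wild-type and 11 over the knockout libraries and failed the filter on low counts. The ratio of knockout to wild-type was 1.04, with a 95% interval of 0.417 to 2.58 that covers counting error only. In these libraries 3 counts amount to 0.0723 to 0.0909 CPM, and TENM2 measured 0.0770 to 0.146 CPM, so no difference was detectable at this depth.

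The summed teneurin level per kilobase of merged exons was 6.24 ± 0.264 CPM in wild-type and 4.01 ± 0.203 CPM in knockout (SD, n = 3). TENM1 supplied 40.5 ± 2.08% of it in wild-type and 6.04 ± 0.555% in knockout. TENM3 made up 53.8 to 58.2% and 84.8 to 86.3%, and TENM4 3.52 to 4.08% and 7.78 to 8.32%. These shares follow the TENM1 levels, for which TENM1 was chosen, and are a description; the TENM3 level itself was not called different.

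The UNC5 receptors showed small differences. UNC5B, a netrin receptor with a cytoplasmic death domain that also guides vessel growth, measured 53.0, 55.6 and 59.2 CPM in wild-type and 74.4, 66.4 and 68.2 CPM in knockout. The groups did not overlap. UNC5B rose by 0.32 on the log2 scale (SE 0.06, edgeR adjusted p = 0.00228, n = 3 per group).

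UNC5C, which guides cerebellar granule cells and spinal axons, measured 17.1, 14.3 and 13.9 CPM in wild-type and 13.8, 14.6 and 14.4 CPM in knockout. Wild-type replicate 1 was the highest library, as it was for FLRT3 and TENM1, and the others of both groups lay together. The log2 fold change was -0.08 (SE 0.09, edgeR adjusted p = 0.508), and 0.03 without wild-type replicate 1 (edgeR adjusted p = 0.803).

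UNC5D, a receptor for FLRT2 in migrating cortical neurons, had 7 counts in wild-type and 16 in knockout and was not tested. It ranged from 2 to 3 counts per wild-type library and from 3 to 8 per knockout library. The ratio of knockout to wild-type was 2.60, with a 95% counting interval of 1.01 to 7.48 that leaves out the spread between libraries. Most of these libraries lie near the floor of 3 counts.

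Counting over the family, 8 of the 10 genes passed the filter on low counts. FLRT2 and TENM1 are among them by choice, and of the other 6, 3 were called higher (FLRT1, TENM4 and UNC5B), 0 lower and 3 not called (edgeR adjusted p under 0.05). Over all 18061 genes, 31.8% were called, 14.0% higher and 17.7% lower, and 45.6% had groups that did not overlap, as FLRT1, TENM4 and UNC5B also had. Calls at a log2 fold change of at least 1, which FLRT1 alone of the 6 reached, made up 1.55% of all genes in the higher and 3.54% in the lower direction. When tested against a log2 fold change of 1 in place of 0, FLRT1 was not called. The median log2 fold change was 0.15 over the 8 tested members, the chosen FLRT2 and TENM1 included, and 0.0031 over all tested genes.

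**Figure D2:**
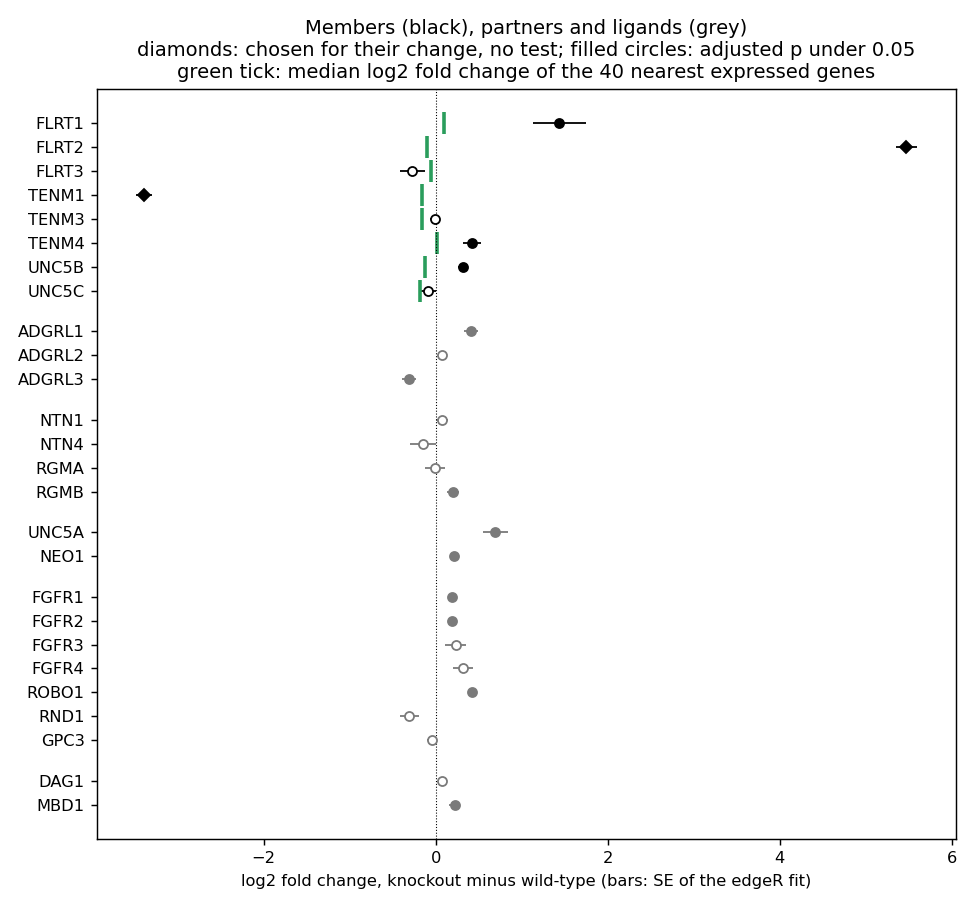
Log2 fold changes of the 8 tested members (black) and of ligands, receptors and partners (grey), with the SE of the edgeR fit as bars; diamonds mark FLRT2 and TENM1, filled circles adjusted p under 0.05, and green ticks the median of the 40 nearest expressed genes. FLRT2 at 5.47 and TENM1 at -3.39 lie outside the span of -0.31 to 0.70 that holds the grey genes plotted here. FLRT1 at 1.44 is the other member beyond that span. The list of other leucine-rich repeat and synaptic adhesion genes, which is not plotted, ran from -4.74 to 1.75.

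In wild-type cells the members spanned 3 orders of magnitude per kilobase of merged exons. The order uses wild-type libraries alone, but FLRT2 and TENM1 were chosen for their change, so their places are not independent of that choice. UNC5B led with 8.18 ± 0.455 CPM per kilobase (SD, n = 3), followed by TENM3 with 3.47 ± 0.126, TENM1 with 2.53 ± 0.209, UNC5C with 1.41 ± 0.162 and FLRT3 with 0.952 ± 0.176. TENM4 came next with 0.240 ± 0.0261 and FLRT1 with 0.175 ± 0.0126 CPM per kilobase. FLRT2 (0.0126 ± 0.00237), TENM2 (0.00913 ± 0.00200) and UNC5D (0.00547 ± 0.00144) closed the order. Of the 9 neighbouring pairs, 7 had ranges apart, while FLRT2 overlapped with TENM2 and TENM2 with UNC5D. In wild-type cells UNC5B and UNC5C mRNA thus lay above all 3 FLRT mRNAs, and UNC5D below them.

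In the knockout the order per kilobase of merged exons was UNC5B (10.2 ± 0.618 CPM per kilobase), TENM3 (3.44 ± 0.205), UNC5C (1.34 ± 0.0359) and FLRT3 (0.792 ± 0.0873). FLRT2 (0.560 ± 0.0236) moved from rank 8 to rank 5, overlapping with FLRT1 (0.476 ± 0.217), and TENM1 (0.242 ± 0.0106) from rank 3 to rank 8, below TENM4 (0.322 ± 0.00575). These moves follow the differences for which FLRT2 and TENM1 were chosen and are a description. By coding length FLRT2 ranked 2 in the knockout with 9.88 ± 0.417 CPM per kilobase, between UNC5B at 24.6 ± 1.49 and UNC5C at 5.11 ± 0.138. Coding length also placed UNC5C level with TENM3 in wild-type cells (5.40 ± 0.621 and 5.13 ± 0.187), with overlapping ranges.

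**Figure D3:**
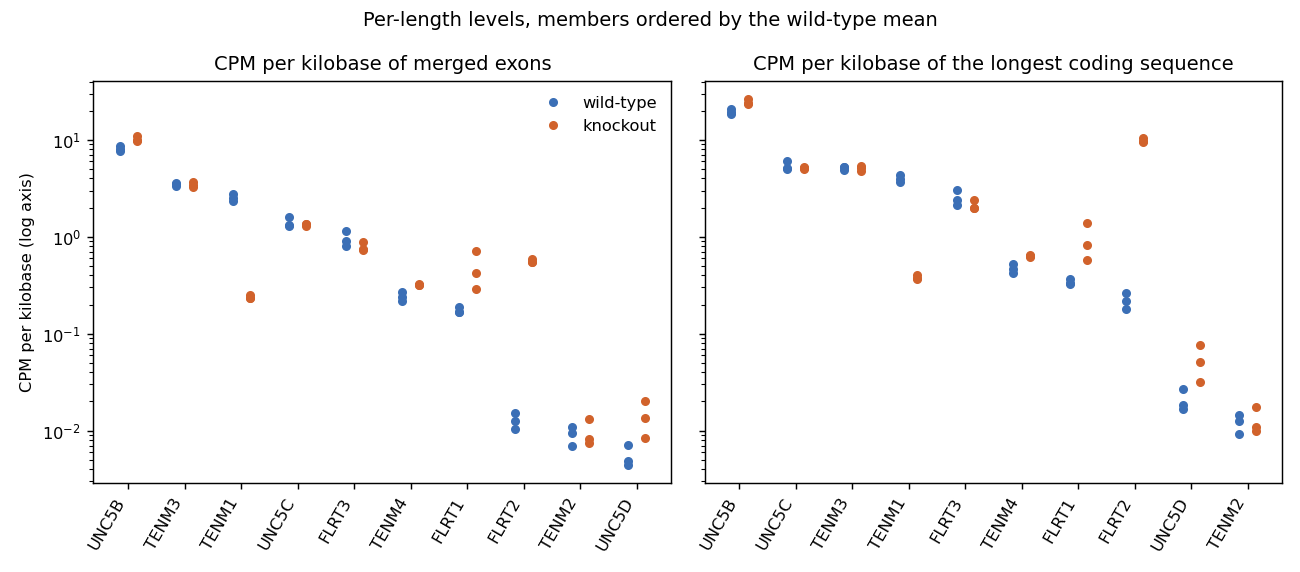
CPM per kilobase of the 10 genes on a log axis, 1 point per library, ordered by the wild-type mean, with merged exons on the left and the longest coding sequence on the right. FLRT2 and TENM1 are the genes whose blue wild-type and orange knockout points lie far apart, and the knockout level of FLRT2 is 0.560 on the left and 9.88 on the right.

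Among the latrophilins, ADGRL1 rose by 0.41 on the log2 scale (edgeR adjusted p = 0.00319), with means of 79.7 ± 9.53 CPM in wild-type and 106 ± 7.55 CPM in knockout (SD, n = 3). ADGRL3, the latrophilin for which the FLRT3 complex is best known, fell from 19.8 ± 1.78 to 16.0 ± 0.735 CPM (edgeR adjusted p = 0.0125). ADGRL2 measured 121 CPM in wild-type and 128 CPM in knockout and was not called, and ADGRL4 had 0 counts in all libraries. The direction of the latrophilin calls was thus split, 1 higher and 1 lower of 3 tested, beside 14.0% higher and 17.7% lower over all tested genes. Without knockout replicate 3, ADGRL3 was not called (edgeR adjusted p = 0.0617), and without wild-type replicate 1, ADGRL2 was called higher (log2 fold change 0.14, edgeR adjusted p = 0.0138).

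Of the netrin and repulsive guidance molecule (RGM) ligands, 4 of 8 were tested. Among these 4, 1 was higher and 0 lower, beside 14.0% higher and 17.7% lower over all tested genes. NTN1, the main secreted ligand of UNC5 receptors, measured 31.8 CPM in wild-type and 33.5 CPM in knockout, a log2 fold change of 0.07 (edgeR adjusted p = 0.466). NTN4 had a log2 fold change of -0.15 and RGMA of -0.0032, neither called. RGMB rose by 0.20 (edgeR adjusted p = 0.0441), but 7 of 14 alternatives did not call it (adjusted p up to 0.168), among them those without wild-type replicate 2 or 3 or knockout replicate 2 or 3. NTN3, NTN5, DRAXIN and HJV (listed as HFE2) had at most 8 counts in any library.

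Both tested receptors of the same ligands rose, beside 14.0% of all tested genes called higher and 17.7% lower. UNC5A, the UNC5 gene outside the chosen set, measured 2.29, 1.82 and 2.49 CPM in wild-type and 4.08, 3.20 and 3.42 CPM in knockout, a rise of 0.70 on the log2 scale (SE 0.15, edgeR adjusted p = 0.0048). NEO1 (neogenin), a receptor of netrin and RGM proteins, rose from 88.6 to 103 CPM, by 0.21 on the log2 scale (edgeR adjusted p = 0.00362). DCC, the classical attractive netrin receptor, had 0 counts in all 6 libraries, which allows up to 0.0723 to 0.0909 CPM per library for counting error. DSCAM and DSCAML1 had 1 count each over all libraries. Receptors of the UNC5 type and neogenin were thus detected, and DCC was not.

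The list of other proteins linked to FLRTs or their complexes, membrane proteins and a cytosolic GTPase, was tested in full, 7 of 7. Of these, 3 were called higher, 0 lower and 4 were not called, beside 14.0% higher and 17.7% lower over all tested genes. ROBO1, a Slit receptor that associates with FLRT3, rose from 155 ± 8.27 to 208 ± 6.84 CPM, by 0.43 on the log2 scale (edgeR adjusted p = 5.92e-05). FGFR1 and FGFR2, fibroblast growth factor receptors, rose by 0.19 each on the log2 scale (edgeR adjusted p = 0.00996 and 0.0137), the latter call being lost in 4 of 14 alternatives (adjusted p up to 0.0619). FGFR2 was not called without wild-type replicate 2 or knockout replicate 2 or 3. FGFR3 (log2 fold change 0.24) and FGFR4 (0.32) were not called, but without wild-type replicate 3 both were (0.36 and 0.41), and FGFR4 also without knockout replicate 2 (0.42). With no filter on low counts both were called as well (adjusted p = 0.00327 for FGFR3 and 0.00237 for FGFR4). FGFR4 was further called with RLE scaling (adjusted p = 0.0403), the filter at 1 CPM (0.0441) and DESeq2 (0.0199), 6 of 14 alternatives in all. RND1, a small GTPase that acts with FLRT3 in cell sorting, stood at -0.30 on the log2 scale and GPC3, a proteoglycan that binds UNC5 receptors, at -0.04, neither called. Without wild-type replicate 1 RND1 was called lower (-0.37, edgeR adjusted p = 0.0261).

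Of the other teneurin partners, DAG1 (dystroglycan), an adhesion receptor, stood at 0.07 on the log2 scale and was not called. MBD1, a methyl-CpG binding protein of the nucleus, rose by 0.22 (edgeR adjusted p = 0.021). Its call was lost in 4 of 14 alternatives (adjusted p up to 0.0595), 3 of them those that left out a knockout library.

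Proteins that act below UNC5 and DCC receptors counted 3 of 18 higher, 5 lower and 10 not called, beside 14.0% higher and 17.7% lower over all tested genes, with a median log2 fold change of -0.06. Among the rises, TRIO, an exchange factor for small GTPases, rose by 0.26 on the log2 scale, DOCK1, another such factor, by 0.23, and DAPK1, the kinase that binds the UNC5B death domain, by 0.15. The DAPK1 call was lost in 7 of 14 alternatives (adjusted p up to 0.135), among them the removal of any single library other than wild-type replicate 1. TRIM9, a ubiquitin ligase that binds DCC, had the largest fall at -0.81, followed by the microtubule protein gene MAP1B (-0.74), the UNC5 adaptor gene MAGED1 (-0.44) and the kinase gene PAK1 (-0.28), given as log2 fold changes (edgeR adjusted p from 1.48e-06 for MAP1B to 0.00569 for PAK1). RAC1, the GTPase that activates PAK1 and a gene named after its value was seen, fell by 0.21 on the log2 scale.

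As a comparison, 42 other leucine-rich repeat and synaptic adhesion genes were taken, of which 27 passed the filter. In this list 9 genes rose, 8 fell and 10 were not called, beside 14.0% higher and 17.7% lower over all tested genes, and the median log2 fold change was 0.16. SLITRK5 fell from 71.7 ± 3.71 to 18.3 ± 1.09 CPM and SLITRK3 from 7.92 ± 0.805 to 0.741 ± 0.179 CPM (SD, n = 3), both neuronal adhesion proteins with leucine-rich repeats. Their log2 fold changes were -1.97 and -3.415, and those of LRRTM4 and LRFN5 were -1.76 and -1.45. ELFN1, a postsynaptic organiser, rose by 1.75 on the log2 scale, and ELFN2, PTPRD and LRFN3 by 0.81, 0.62 and 0.56. SLITRK1, named after its values were seen since it lay below 1 CPM, had 27, 21 and 23 counts in wild-type and 0, 2 and 0 in knockout.

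The differences of FLRT2 and TENM1, for which they were chosen, are set beside their expressed chromosomal neighbours as a description. The 40 expressed genes nearest to FLRT2, with a mean of at least 2 CPM, had a median log2 fold change of -0.09 and a range of -0.48 to 0.43, with 5 called higher and 10 lower. Around TENM1 the median was -0.15 and the range -0.44 to 0.42, with 3 called higher and 20 lower. Over all tested genes, which did not have to reach 2 CPM, 14.0% were called higher and 17.7% lower. Removing the neighbour medians gave 5.56 for FLRT2 and -3.23 for TENM1. For UNC5B, TENM4 and FLRT1 the same step gave 0.44, 0.41 and 1.34, beside neighbour medians of -0.12, 0.01 and 0.09. The medians near TENM3 and UNC5C were -0.15 and -0.18, so both genes, though not called, lay above them (0.14 and 0.10 after removal), and that near FLRT3 was -0.05.

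**Figure D4:**
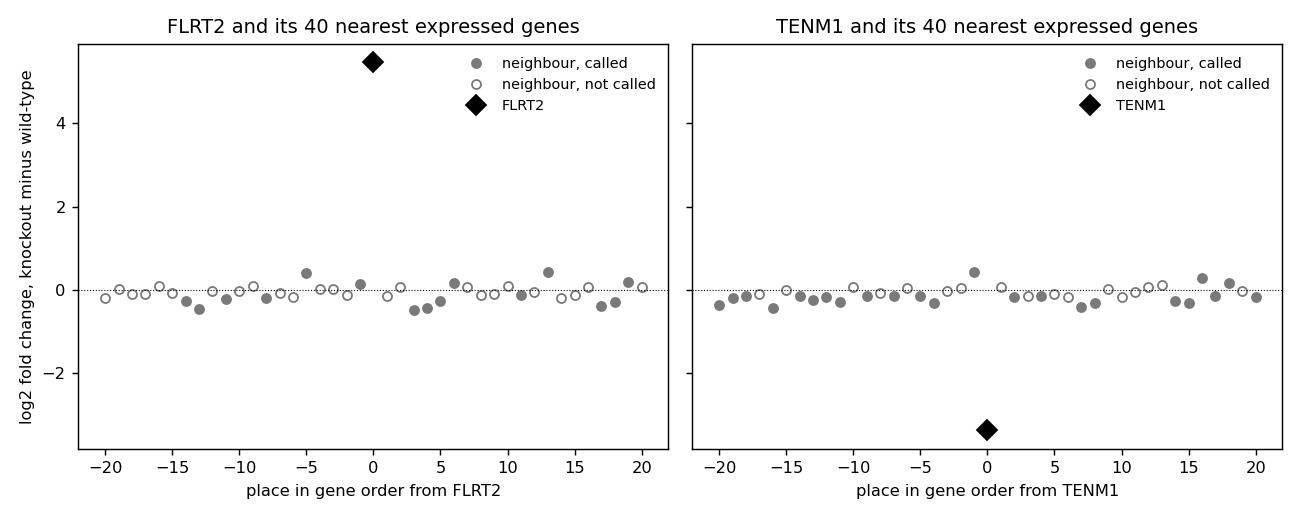
Log2 fold change of FLRT2 and TENM1 (diamonds) and of the 20 nearest expressed genes on each side, plotted by place in gene order, filled where adjusted p was under 0.05. The plotted neighbours, each with a mean of at least 2 CPM, stay between -0.48 and 0.43, while FLRT2 stands at 5.47 and TENM1 at -3.39. GALC, the next tested gene on the right of FLRT2 (log2 fold change -6.68), is below that limit and not plotted.

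The next tested gene on each side showed single differences. On the left of FLRT2, SEL1L, a quality-control protein of the endoplasmic reticulum, rose by 0.14 on the log2 scale (edgeR adjusted p = 0.0301, lost in 7 of 14 alternatives with adjusted p up to 0.12, among them the removal of any single library other than wild-type replicate 1). On its right GALC, a lysosomal galactosylceramidase 2183394 bases away and too low to count among the 40, had 59, 53 and 45 counts in wild-type and 0, 1 and 0 in knockout. The ratio of wild-type to knockout was 138, with a 95% counting interval of 24.4 to 5480. The gene next to TENM1 on the left is STAG2, a cohesin subunit on the other strand whose exons overlap those of TENM1 by 241 bases. STAG2 rose from 490 ± 35.2 to 657 ± 26.5 CPM (edgeR adjusted p = 0.000147), opposite to TENM1, and the part of STAG2 reads in the TENM1 count was not tested. SMARCA1, on the right, was not called (log2 fold change 0.07), except without wild-type replicate 1 (0.17, edgeR adjusted p = 0.0227).

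Around the remaining members, PCBD1 beside UNC5B (-0.47), DCTD beside TENM3 (-0.46) and RAP1GDS1 beside UNC5C (-0.22) had lower levels, and FAM181B beside TENM4 (1.00) and RNF122 beside UNC5D (0.31) higher ones, given as log2 fold changes of called genes. SLC29A3, BMPR1B, NARS2, STIP1, NDUFAF5, MAT2B, WWC1, ZNF703 and AC108142.1 were not called (log2 fold changes of -0.11 for NARS2 to 0.21 for SLC29A3). The FAM181B call was lost with DESeq2 (adjusted p = 0.0737), and BMPR1B was called without wild-type replicate 1 (0.27, edgeR adjusted p = 0.0251).

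Among all tested genes, those closest to FLRT2 in log2 CPM over the 6 libraries were STMN2, FGF13 and TNFRSF8, with root mean square differences of 0.583, 0.640 and 0.901. STMN2 measured 0.805 CPM in wild-type and 17.6 CPM in knockout. Those closest to TENM1 were SYK (0.657), SV2A (0.661) and ITPR3 (0.680), and SYK measured 19.1 and 2.20 CPM. STMN2 lies on chromosome 8, FGF13 on X, TNFRSF8 on 1, SYK on 9, SV2A on 1 and ITPR3 on 6, none on the chromosome of the gene it resembles. This likeness uses the same values for which FLRT2 and TENM1 were chosen and is a description only.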

How the data were processed

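RNA of 3 wild-type and 3 SMARCA3 knockout HEK293T libraries was measured by paired-end sequencing with a stranded poly(A) kit, per the labels' protocols. The authors deposited raw read counts per gene symbol. The submitters' processing notes name Trim Galore, STAR 2.4, Picard, HTSeq 0.9.1, DESeq2 and hg38, while for the annotation release and the strand setting nothing is given in the sources used here. Totals per library are in the text, and counting intervals and floors cover counting error only.

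From these counts, genes were filtered with filterByExpr, scaled by TMM and tested with the quasi-likelihood test of edgeR 4.0.16 (R 4.3.3), knockout against wild-type, with Benjamini-Hochberg adjustment over 18061 genes and a threshold of 0.05. The script was tested on simulated data. Positions and lengths came from GENCODE 29 and were matched by symbol for 80.0% of tested genes. Genes were named if they were members, overlapped or neighboured one, belonged to a list of fewer than 9 genes, were among up to 4 called genes per direction of a longer list (at least 1 CPM), resembled FLRT2 or TENM1 most (3 each), or were HLTF. One gene of the partner lists is not reported here. The members and lists were chosen with earlier results of these data known. Alternatives were RLE or library-size scaling, other filters, DESeq2 1.42.0, limma-voom (limma 3.58.1), robust dispersion, a replicate block, stricter thresholds, leaving out each library, other gene lengths and removal of the neighbour median.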

Additional observations from a re-analysis of the deposited data

How the results depend on the processing

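Over all genes, 2532 were higher and 3205 lower. An adjusted p threshold of 0.01 left 1421 higher and 2056 lower, while a glmTreat test with 1 as the log2 bound left 98 and 279, both being stricter by construction. Leaving out one library at a time gave 1850 to 2881 higher and 2309 to 3275 lower. Counting FLRT2 and TENM1, which were chosen for their change and say nothing on stability, 4 of the 10 genes passed as higher and 1 as lower, and with glmTreat 1 as higher, which was not FLRT1, TENM4 or UNC5B. FLRT1, TENM4 and UNC5B were called in all 14 alternatives with a test at 0.05 (adjusted p up to 0.015, 0.0374 and 0.0166).

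Among the genes for which alternatives were run, which leave out those named for likeness to FLRT2 or TENM1, signs turned only for values near 0 that were not called. Without single libraries, TENM3 ranged from -0.043 to 0.032 (0.012 without wild-type replicate 1, 0.013 without wild-type replicate 3, 0.032 without knockout replicate 3) and UNC5C from -0.13 to 0.028. Among the neighbours, AC108142.1 ranged from -0.086 to 0.11, MAT2B from -0.040 to 0.019 and ZNF703 from -0.13 to 0.030, and among the partners GPC3 from -0.079 to 0.014 and RGMA from -0.13 to 0.10. RGMA was also 0.0075 with RLE, 0.0066 with the filter at 1 CPM, 0.0087 with the replicate block, 0.0070 with DESeq2 and 0.014 with limma-voom. The cause was not tested.

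Same-numbered replicates did not deviate together (r = -0.226, -0.014 and -0.055), so the numbers are not taken to pair the samples. With the replicate block, 1791 genes were higher and 2441 lower, 4224 of them among the 5737 called without it, and FLRT1, TENM4 and UNC5B were called higher. Depth limits TENM2 and UNC5D, which lie near the floor of 3 counts.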
